A study of Homo sapiens with 8 samples.

Results

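The promoter of *TET2* was covered by 15 sgRNAs, those of the classes TSS (2) and tiling (13) that were designed against this gene, out of 91 targeting sgRNAs in the deposited table. The rule for the members uses target and design class alone, not the level of *TET2*. The cells were K562, an established human erythroleukaemia line. One line carried dCas9 fused to repressor domains (CRISPRi) and the other, a monoclonal line, the activator fusion dCas9-VPR (CRISPRa). Both received the same lentiviral sgRNA library at low multiplicity, were selected with puromycin under blasticidin, and were collected on day 8 for a pooled single-cell run on 2 10X lanes, which gave the 8 sequencing records of the series.

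TET2 is a dioxygenase that oxidizes methylated cytosine to hydroxymethylcytosine, a step towards DNA demethylation, and loss of its function is frequent in myeloid malignancies. In CRISPRi, dCas9 brings the repressor domains to a promoter and lowers its transcription, and in CRISPRa it brings activator domains to the same place. The sgRNAs of 1 promoter differ in the position and strand of their protospacer, and also in its sequence. The question addressed here is how the change of *TET2* itself varied along its promoter in each line.

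The protospacers are shown so that each value below can be placed on the promoter. They run from the most upstream to the most downstream sgRNA on hg38, 5′ to 3′, each on its own strand, in lower case with the PAM in capitals.
TET2_1 (chr4:105145671-105145690, plus strand): ggaattagctctgtatcggtCGG
TET2_2 (chr4:105145785-105145804, plus strand): ttcctcctagcgagaagtagGGG
TET2_3 (chr4:105145978-105145997, minus strand): agcgctcccctgtttcaccgAGG
TET2_4 (chr4:105146065-105146084, plus strand): atagagacgcgggcctctgaGGG
TET2_5 (chr4:105146203-105146222, plus strand): gtgtgcgcgggacctcgaagTGG
TET2_6 (chr4:105146323-105146342, minus strand): cagagcaagcgcgaaggttgGGG
TET2_7 (chr4:105146379-105146398, minus strand): tgcagccctcgggaaccccgGGG
TET2_8 (chr4:105146462-105146481, minus strand): tcacgccgtgcagtggcgcgGGG
TET2_9 (chr4:105146538-105146557, plus strand): tttgtgctggacgcccggtgCGG
TET2_10 (chr4:105146659-105146678, minus strand): gccggctctcctcctccgccCGG
TET2_11 (chr4:105146755-105146774, minus strand): ggacgtgacttgcatgcgagCGG
TET2_12 (chr4:105146840-105146859, plus strand): ccttatgaatattgatgcggAGG
TET2_14 (chr4:105146935-105146954, minus strand): gcaatccagcagttgcagtcGGG
TET2_20 (chr4:105147244-105147263, minus strand): ccggctcgtcggaggcacaaAGG
TET2_13 (chr4:105147402-105147421, minus strand): tgaggttgttcaggataaacGGG

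At the positions given in the table, hg38 held all 15 protospacers and PAMs, and 15 of 15 matched the deposited list of sgRNA tags. *TET2* is on the plus strand of chromosome 4, from 105145875 to 105279816 in GENCODE 44. An sgRNA whose protospacer is on the plus strand therefore pairs with the template strand of the gene, and one on the minus strand pairs with the non-template strand. There were 6 of the former and 9 of the latter. Neighbouring protospacer centres were a median of 105 bp apart, from 56 to 309 bp, and no pair of protospacers overlapped.

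GENCODE 44 lists 9 *TET2* transcripts with 8 different starts. The first, at 105145875, is that of TET2-202. Both TET2-207 and TET2-209 start at 105146293, and TET2-201 starts at 105146786. The MANE Select transcript TET2-203, the one chosen as representative of the gene, starts at 105146876, and TET2-208 starts at 105147457. The deposited distances count from 105146469, which is not the start of any of these transcripts: it is 176 bp downstream of the start of TET2-207 and 407 bp upstream of the MANE Select start. Distances below are from the centre of the protospacer to this deposited start, negative upstream, unless another start is named.

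The sgRNAs were thus spread over several annotated first exons. TET2_3 and TET2_4 lay in the first exon of TET2-202. The sgRNAs TET2_6, TET2_7, TET2_8, TET2_9, TET2_10 and TET2_11 lay in the long first exon of TET2-207 and TET2-209, from 105146293 to 105146979. TET2_12 and TET2_14 lay in the same exon where it is shared with further transcripts. In all, 10 of the 15 overlapped a non-coding first exon of an annotated transcript. The other 5 lay outside *TET2* exons: TET2_1 and TET2_2 upstream of the first start, TET2_5 just upstream of the start of TET2-207, and TET2_20 and TET2_13 beyond the shared first exon.

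Each value is the deposited log2(FC) of *TET2*, the log2 of its mean normalized expression in the cells with 1 sgRNA over that in NTC cells, which carry a non-targeting sgRNA, of that line. There were 536 NTC cells in CRISPRi and 323 in CRISPRa, and all values of a line share them. Per the methods, the cells of 1 non-targeting sgRNA were discarded in CRISPRa alone, for possible off-target activity. The NTC cells of the lines thus do not carry the same set of sgRNAs. Each sgRNA was measured once in 1 culture per line, so a single value has no replicate error and the lines were not compared by a test. The depth behind a value is its number of cells. It ran from 29 (TET2_1) to 142 (TET2_3) in CRISPRi, with a median of 86, and from 30 (TET2_9) to 104 (TET2_3) in CRISPRa, with a median of 62. A log2(FC) understates the change in expression, since a constant enters both means ahead of the log. The percents of the NTC level given below are the log2(FC) put back on the linear scale. They understate the change in the same way and rest on the unit being log2.

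The 71 sgRNAs of the other cis genes give a scale for these values, since they do not target *TET2*. In those perturbations the log2(FC) of *TET2* had a median of 0.00212 and an SD of 0.11 in CRISPRi, from −0.27 to 0.29 (n = 71). In CRISPRa the median was −0.00498 and the SD 0.13, from −0.44 to 0.34 (n = 70). The spread was larger where cells were few: the SD in CRISPRa was 0.16 over the 21 perturbations with fewer than 60 cells and 0.11 over the other 49. In CRISPRi it was 0.13 over 14 and 0.10 over 57. Both ends of both ranges came from *GFI1B* sgRNAs, so a value inside these ranges can lie outside those of the *MYB* and *NFE2* sgRNAs. With *MYB* sgRNAs *TET2* ran from −0.21 to 0.14 in CRISPRi and from −0.16 to 0.17 in CRISPRa, and with *NFE2* sgRNAs from −0.12 to 0.18 and from −0.16 to 0.15.

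In CRISPRi, *TET2* was below the NTC level with 15 of the 15 promoter sgRNAs. The median log2(FC) was −0.30, or 81.1% of the NTC level, with a mean of −0.28 ± 0.13 (SD, n = 15 sgRNAs), and the values ran from −0.43 to −0.01. *TET2* was lower by 0.2 or more with 11 of the 15, beside 4.23% of the perturbations of the other cis genes. TET2_14 was just inside this limit, at −0.207, and TET2_4 just outside it, at −0.197. With 9 of the 15 sgRNAs *TET2* was lower than with any of the 71 sgRNAs of other genes. With the others, TET2_1, TET2_2, TET2_4, TET2_12, TET2_14 and TET2_13, it was inside the range of those perturbations.

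In CRISPRa, *TET2* was above the NTC level with 12 of the 15 sgRNAs and below it with 3. The median log2(FC) was 0.29, or 122% of the NTC level, with a mean of 0.29 ± 0.28 (SD, n = 15 sgRNAs). The values ran from −0.20 to 0.80. *TET2* was higher by 0.2 or more with 8 of the 15, beside 1.43% of the perturbations of the other cis genes. TET2_20 was just inside this limit, at 0.29, and TET2_6 just outside it, at 0.18. With 7 of the 15 sgRNAs *TET2* was higher than with any of the 70 measured sgRNAs of other genes.

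Followed from upstream to downstream, the CRISPRi values were close to 0 at first. TET2_1, at −788.5 bp, gave −0.01 in 29 cells, and TET2_2, at −674.5 bp, gave −0.04 in 87 cells. Both lie before the first annotated start, by 194.5 and 80.5 bp, and both are inside the spread of *TET2* in the perturbations of other genes.

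Past the first annotated start the level was lower. TET2_3, at −481.5 bp, gave −0.28 in 142 cells, and TET2_4, at −394.5 bp, gave −0.20 in 95 cells. TET2_5, at −256.5 bp and 80.5 bp upstream of the start of TET2-207, gave −0.42 in 86 cells.

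Around the deposited start the CRISPRi values changed little from site to site. TET2_6 (−136.5 bp) gave −0.38, TET2_7 (−80.5 bp) −0.30 and TET2_8 (2.5 bp) −0.39, in 95, 102 and 58 cells. TET2_9 (78.5 bp) gave −0.37, TET2_10 (199.5 bp) −0.35 and TET2_11 (295.5 bp) −0.33, in 32, 99 and 37 cells. With TET2_5, the 7 sgRNAs within 300 bp of the deposited start all lay between −0.42 and −0.30, with a median of −0.37, or between 74.6% and 81.1% of the NTC level. The width of this band was close to the SD of *TET2* in perturbations that do not target it. This stretch was marked out after its values were seen, and no test was made of it.

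Downstream of that stretch the CRISPRi values went up and down again. TET2_12 (380.5 bp) gave −0.19 in 47 cells and TET2_14 (475.5 bp) −0.21 in 37 cells. TET2_20 (784.5 bp) gave −0.43 in 86 cells, the lowest of the set, and TET2_13 (942.5 bp) gave −0.26 in 100 cells. The sgRNAs of the TSS class, TET2_14 and TET2_20, thus ranked 11 and 1 of 15 by reduction.

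The CRISPRa values did not follow the same course. Upstream, TET2_1 gave 0.34 in 39 cells, TET2_2 0.15 in 56 cells, TET2_3 −0.03 in 104 cells and TET2_4 0.16 in 70 cells. TET2_1 therefore had the weakest reduction of the set in CRISPRi and a value that ranked 7 of 15 in CRISPRa. TET2_3 was the reverse case, with −0.28 in CRISPRi and −0.03 in CRISPRa, in the largest numbers of cells of the set.

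Within 300 bp of the deposited start, 5 of the 7 sgRNAs were past 0.2 in CRISPRa, and neighbours differed in level. TET2_6 and TET2_8 were not, and lay inside the range of *TET2* in the perturbations of other genes, TET2_6 only through the *GFI1B* sgRNAs. TET2_5 gave 0.41 in 66 cells, TET2_6 0.18 in 86 cells, TET2_7 0.54 in 63 cells and TET2_8 0.14 in 40 cells. TET2_9 gave 0.80 in 30 cells, TET2_10 0.50 in 48 cells and TET2_11 0.62 in 62 cells. TET2_8, at 2.5 bp the sgRNA closest to the deposited start, ranked 12 of 15 by activation, while TET2_9, 76 bp farther on, ranked 1. The step between them was 0.66 on the log2 scale, whereas in CRISPRi the same step was 0.02. TET2_9 corresponds to 174% of the NTC level, but with the fewest cells of the set in CRISPRa.

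The largest step between neighbours was next in line. From TET2_11 to TET2_12, over 85 bp, the CRISPRa value went from 0.62 to −0.20, a change of −0.83. TET2_14, 95 bp farther on, gave −0.10 in 38 cells. Farther downstream TET2_20 gave 0.29 in 85 cells and TET2_13 0.50 in 92 cells. TET2_13, the sgRNA farthest downstream, thus ranked 5 of 15 and lay 45.5 bp upstream of the start of TET2-208.

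The sgRNAs closest to the MANE Select start were TET2_12, centred 26.5 bp upstream of it, and TET2_14, centred 68.5 bp downstream. In CRISPRi these 2 gave −0.19 and −0.21, and in CRISPRa −0.20 and −0.10, and so they had the lowest values of the set in CRISPRa and ranked 13 and 11 in CRISPRi. Both CRISPRi values are within the range of *TET2* in perturbations that do not target it, and within that of the *MYB* sgRNAs alone. Both CRISPRa values are also within the range of their line, for TET2_12 only through the *GFI1B* sgRNAs. All these values rest on fewer than 60 cells. Their sgRNAs differ in strand: TET2_12 pairs with the template and TET2_14 with the non-template strand.

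Subtracting the CRISPRi from the CRISPRa value of each sgRNA sums up how far *TET2* was moved from each site. Its median was 0.56 on the log2 scale, from −0.01 for TET2_12 to 1.17 for TET2_9. TET2_11 followed with 0.95, TET2_10 with 0.85, TET2_7 with 0.84 and TET2_5 also with 0.84. Outside the central stretch TET2_13 had 0.76 and TET2_20 0.72. The smallest after TET2_12 were TET2_14 with 0.11, TET2_2 with 0.19 and TET2_3 with 0.25.

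*TET2* was below the NTC level in CRISPRi and above it in CRISPRa with 12 of the 15 sgRNAs, and below it in both lines with TET2_3, TET2_12 and TET2_14. As all 15 were below it in CRISPRi, this division follows the CRISPRa values alone. By the limit of 0.2, 7 sgRNAs passed in both lines, 4 in CRISPRi alone (TET2_3, TET2_6, TET2_8 and TET2_14), TET2_1 in CRISPRa alone, and 3 in neither (TET2_2, TET2_4 and TET2_12). With 11 past it in CRISPRi and 8 in CRISPRa, some overlap follows from these counts alone, and the overlap was not tested. Over the perturbations of the other cis genes the shares past it, each for 1 line, were 4.23% in CRISPRi and 1.43% in CRISPRa. Their share past it in both lines was not computed, so these shares are no scale for the overlap. Over the 15 sgRNAs the values of the lines had a Pearson's r of −0.33 and a Spearman's rho of −0.34, given as a description because the values of a line share their NTC cells.

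Distance from the deposited start was described in the same way. In CRISPRi the absolute distance and the log2(FC) had an r of 0.52 and a rho of 0.52 (n = 15), a tendency to less reduced values farther out. TET2_1 and TET2_2, at −788.5 and −674.5 bp, gave −0.01 and −0.04. TET2_20, at 784.5 bp, went the other way with −0.43, the lowest of the set. The r was 0.43 without TET2_1 and TET2_13, and it was not computed without both TET2_1 and TET2_2. In CRISPRa r was −0.18 and rho −0.25. With the absolute distance to the MANE Select start, r was 0.52 and rho 0.25 in CRISPRi, and −0.04 and −0.05 in CRISPRa. For the signed distance r was −0.46 in CRISPRi and 0.11 in CRISPRa.

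The sides of the deposited start were compared with an exact permutation test over sgRNAs, two-sided, adjusted by Benjamini-Hochberg over 4 comparisons (side and strand in each line). A p-value here measures the spread between sgRNAs of 1 culture. In CRISPRi the 8 downstream sgRNAs had a mean of −0.32 ± 0.09 (SD) and the 7 upstream −0.23 ± 0.16, a difference of −0.08 (exact p = 0.232, adjusted p = 0.463). In CRISPRa the means were 0.32 ± 0.35 and 0.25 ± 0.19, a difference of 0.07 (exact p = 0.656, adjusted p = 0.875). Split instead at 105146293, the start of TET2-207 and TET2-209, the difference was −0.13 in CRISPRi (exact p = 0.0603, adjusted p = 0.149) and 0.12 in CRISPRa (exact p = 0.455, adjusted p = 0.606). At the MANE Select start the difference was −0.03 in CRISPRi (exact p = 0.769) and −0.07 in CRISPRa (exact p = 0.719), and at the start of TET2-201 it was 0.01 (exact p = 0.933) and −0.23 (exact p = 0.178). No split passed the threshold of 0.05. The adjusted p of an alternative split takes the place of the main one among the 4 comparisons, so it does not count the starts tried. The upstream set of every split includes TET2_1 and TET2_2, and no split was run without both.

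By strand, the 6 sgRNAs that pair with the template had a mean of −0.21 ± 0.17 (SD) in CRISPRi and the 9 that pair with the non-template strand −0.33 ± 0.07 (exact permutation test, p = 0.0743, adjusted p = 0.297). The non-template values ran from −0.43 to −0.21 and the template values from −0.42 to −0.01, so the sets overlapped. TET2_1 and TET2_2, the sgRNAs farthest upstream, both pair with the template. Without them, a choice made after the values were seen, the strand difference in CRISPRi was 0.03 in place of 0.12 (exact permutation test, p = 0.561). In CRISPRa the means were 0.28 ± 0.33 and 0.29 ± 0.26, a difference of −0.02 (exact permutation test, p = 0.916, adjusted p = 0.916). The highest and the lowest CRISPRa values, TET2_9 and TET2_12, both belong to sgRNAs that pair with the template.

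Base composition changed along the promoter. In the 200 bp around each protospacer centre, GC content was 44% for TET2_1, was 74% to 81% from TET2_7 to TET2_10, was 72% for TET2_11 and 58.5% for TET2_12, and ended at 43.5% for TET2_20 and 45.5% for TET2_13. The number of CpG dinucleotides in these windows went from 6 for TET2_2 to 30 for TET2_11 and down to 4 for TET2_13. GC content and log2(FC) had an r of −0.53 and a rho of −0.43 in CRISPRi and an r of 0.44 and a rho of 0.42 in CRISPRa (n = 15), with position and composition not told apart. TET2_13 and TET2_20 combined low GC with log2(FC) past 0.2 in both lines.

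The scores of the sgRNAs tracked the values less than GC content did. A positive r in CRISPRi means less reduced values at higher scores. The on-target score ran from 0.111 (TET2_6) to 0.774 (TET2_3) and had an r of 0.26 with the log2(FC) in CRISPRi and 0.18 in CRISPRa. The specificity score had a median of 89.2, and its lowest values were 48.3 for TET2_20 and 57.7 for TET2_10. Its r was 0.30 and its rho 0.04 in CRISPRi, and −0.09 and 0.01 in CRISPRa. With the number of cells, r was −0.21 and −0.13. Their part in the values was not tested.

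The number of cells per sgRNA was itself alike in the lines, with an r of 0.79 and a rho of 0.74 over the 15 sgRNAs. Both lines received the same library. The promoter sgRNAs made up 1132 of 10111 CRISPRi cells with a targeting sgRNA, or 11.2% (exact Clopper-Pearson 95% interval 10.6% to 11.8%), and 928 of 8781 CRISPRa cells, or 10.6% (9.93% to 11.2%). The intervals cover counting error only. By number the set is 15 of the 91 targeting sgRNAs, a larger share than its share of cells in either line. The cause of this was not tested.

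*TET2* stood first among the 92 measured genes in most of these perturbations. It was the lowest of the 92 with 9 of the 15 sgRNAs in CRISPRi, and ranked 2 for TET2_4 and TET2_7, 3 for TET2_12, 5 for TET2_14, 14 for TET2_2 and 28 for TET2_1. In CRISPRa it was the highest of the 92 with 8 of the 15. It ranked 3 for TET2_6, 5 for TET2_4, 7 for TET2_8, 8 for TET2_2, 73 for TET2_3, 85 for TET2_14 and 92, the last, for TET2_12. The other 91 genes were lower by 0.2 or more in 1.83% of gene and sgRNA pairs in CRISPRi, with at most 5 such genes for 1 sgRNA, and higher by as much in 1.1%. In CRISPRa the shares were 2.56% higher, again with at most 5 genes for 1 sgRNA, and 2.86% lower.

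The capture panel held 134 baits for *TET2*, of which 1 overlapped the first exon of TET2-202, 5 the first exon that ends at 105146979 and 2 the first exon of TET2-208. RNA from each of these first exons could thus be captured, but the table holds 1 value for the whole gene and the starts cannot be told apart. The protospacers of 7 of the 15 sgRNAs overlapped a bait.

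A protospacer of this set was also the target of mismatched sgRNAs. Of the 4 that differ from TET2_11 by 1 base, the log2(FC) of *TET2* ran from −0.16 to 0.12 in CRISPRi, against −0.33 with TET2_11 itself, and from −0.04 to 0.23 in CRISPRa, against 0.62. Both low ends are those of TET2_17, in 31 and 18 cells, and without it the values ran from 0.04 to 0.12 and from 0.06 to 0.23. The 1 derived from TET2_20 gave −0.34 and 0.20, against −0.43 and 0.29.

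Beside the promoter sgRNAs of the other cis genes on their own targets, those of *TET2* had a CRISPRi median of −0.30, next to −0.30 for *NFE2* (15 sgRNAs), −1.09 for *GFI1B* (14) and −0.23 for *MYB* (15). The CRISPRa medians were 0.29 for *TET2*, 0.09 for *NFE2* (14), 0.05 for *MYB* and 0.14 for *GFI1B*, and the highest values 0.80, 0.28, 0.18 and 0.49. The constant that enters both means ahead of the log weighs more on a gene of lower expression, so these values are not on a common scale. The sets were not compared by a test, because sgRNAs to 1 gene are not replicates of a condition.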

How the data were processed

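ECCITE-seq of K562 cells gave 4 cDNA, 2 sgRNA tag and 2 hashing tag libraries. Per the methods, the reads were processed on GRCh38 with Cell Ranger (cDNA and sgRNA tags) and alevin (hashing tags). Cells with few UMIs or genes, those with the most UMIs and cells with several sgRNAs were removed. Seurat was used to normalize and to compare cells with NTC cells. The authors deposited log2 fold changes, taken here in the unit of the column name although the methods write a natural log, and on-target and specificity scores of the sgRNAs. The deposited p-values, FDRs and calls were not used. No counts of single cells entered the analysis.

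Members were the sgRNAs of *TET2* in the classes TSS and tiling, all of which were kept. This rule uses no measured value, but it and the gene lists were set with earlier results of these data known. Protospacers, starts and baits were placed on hg38 with GENCODE 44. A limit of 0.2 on the log2 scale was used for counts. Sides and strands were compared with exact permutation tests over sgRNAs, checked on simulated data. Correlations are descriptions, without p. Genes named are *TET2*, the other cis genes, *GAPDH*, *LHX3*, genes of DNA methylation on the panel, and in each line the 2 other genes with the largest absolute median. Alternatives used at least 30 or 50 cells, tiling sgRNAs alone, other limits and starts, medians, and each sgRNA left out. Software versions were scipy 1.17.1, pandas 2.3.3 and numpy 2.4.6, under Python 3.11.15.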

Additional observations from a re-analysis of the deposited data

How the results depend on the processing

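No paired analysis was possible because the replicate numbers belong to libraries, and the deposited table holds no columns of single libraries. The lines were set side by side by sgRNA. Under the alternatives run, the medians kept their sign, the counts past 0.2 stayed within 1.5 times, and no adjusted p of the strand and side tests was under 0.05. The sign of a difference changed as follows, and there the exact permutation test gave no p under 0.05. Downstream minus upstream became −0.0720 in CRISPRa at the MANE Select start, and 0.00696 in CRISPRi and −0.226 in CRISPRa at the start of TET2-201. Over the sgRNAs left out in turn, this difference ran from −0.11 to −0.05 in CRISPRi and from −0.0016 to 0.14 in CRISPRa, with its sign changed without TET2_9, and template minus non-template from 0.08 to 0.16 and from −0.12 to 0.0808. The CRISPRa sign of the latter changed with each of 7 sgRNAs left out. The unadjusted p of strand in CRISPRi crossed 0.05 without TET2_5 (exact permutation test, p = 0.0130, adjusted p = 0.0519) and without TET2_9 (exact p = 0.0285, adjusted p = 0.114). The correlation of absolute distance with log2(FC) in CRISPRa was −0.42 without the 2 sgRNAs farthest from the median distance, against −0.18. Those 2 were TET2_1 and TET2_13, both far from the start, with CRISPRa values of 0.34 and 0.50. The cause of these values was not tested. The median ran from −0.32 to −0.29 in CRISPRi and from 0.23 to 0.31 in CRISPRa with each sgRNA left out, and the correlation between the lines from −0.45 to −0.28. Counts past the limit were 13 and 12 at 0.1, and 8 and 7 at 0.3, in CRISPRi and CRISPRa, beside 11.3% and 14.3%, and 0% and 1.43%, of the perturbations of other genes. Cells per sgRNA limit each value, and no replicate culture was measured.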

Other observations

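The other genes of the panel were also read in the cells with the promoter sgRNAs of *TET2*. Of a list of 13 genes that holds enzymes and regulators of DNA methylation and the genomic neighbours of *TET2*, 1 was on the panel. This was *DNMT3B*, which encodes a DNA methyltransferase, and its log2(FC) had a median of −0.02 in CRISPRi, from −0.14 to 0.13, and of 0.04 in CRISPRa, from −0.08 to 0.15 (15 sgRNAs in each line). It passed 0.2 with 0 of 15 sgRNAs in each line, beside 1.83% lower and 1.1% higher over all other genes in CRISPRi, and 2.86% and 2.56% in CRISPRa, so that a count of 0 does not set a gene apart. The same count was found for the other cis genes. *GFI1B* ran from −0.11 to 0.05 in CRISPRi and from −0.09 to 0.11 in CRISPRa, *MYB* from −0.03 to 0.14 and from −0.02 to 0.16, and *NFE2* from −0.03 to 0.03 and from −0.05 to 0.09. *GAPDH*, a glycolytic enzyme of high expression, stayed between −0.03 and 0.01 over both lines. *LHX3*, which is not expressed in these cells, took the value −0.01 with 14 of the 15 sgRNAs in CRISPRi and with 15 of 15 in CRISPRa. In each line this was also its median and its lowest value over the sgRNAs of the other cis genes. It is a value at the floor and does not measure a decrease.

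The largest absolute medians among the other 91 genes were those of *CA1* and *MPPE1* in CRISPRi and of *PLCD1* and *UCA1* in CRISPRa. These genes were picked by their medians over these same sgRNAs, so counts above the share over all genes can follow from the choice. How often each passed the limit in the other perturbations was not counted. *CA1*, a carbonic anhydrase of red cells, had a median of −0.13, from −0.36 to 0.24. It was lower by 0.2 or more with 5 of the 15 sgRNAs, beside 1.83% over all other genes, and higher by as much with 1, beside 1.1%. Its median over the 71 sgRNAs of the other cis genes was 0.01, from −0.99 to 0.66. *MPPE1* had a median of −0.08, against −0.04 in the other perturbations, and was lower by 0.2 or more with 1 of the 15. In CRISPRa, *PLCD1*, a phospholipase C, had a median of −0.15 and was lower by 0.2 or more with 6 of the 15, beside 2.86% over all other genes, and its median in the 70 other perturbations was −0.09. *UCA1*, a long noncoding RNA, had a median of −0.13 and passed the same limit with 5 of the 15, against a median of −0.01 in the others. All perturbations of a line share their NTC cells, so the values of 1 gene across sgRNAs are not independent, and these medians were not tested.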
